A study of Mus musculus with 8 samples.

Results

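The 7 miRNAs described here are mmu-mir-29c, mmu-mir-32, mmu-mir-193a, mmu-mir-204, mmu-mir-375, mmu-mir-532 and mmu-mir-698, which earlier mouse work found raised in the sperm of stressed fathers. The miR-30 members of that set are not described. The members were chosen by name, with no value of these data in the rule, and a sequence was counted for a member only where its annotation names that miRNA and no other RNA. Of the 7 members 6 had at least 1 read, among 861 miRNA species with at least 1 read in the series, and 5 reached 50 reads in at least 4 samples, among 273 miRNA species that did. The members too low to test were mmu-mir-193a and mmu-mir-698.

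Mature sperm from the caudae epididymides was compared between 4 activated samples, from Agrp Cre/+ male mice, and 4 control samples, from Agrp +/+ male mice. All 8 samples share the remaining treatment. At 8 weeks of age the mice received an adeno-associated virus, AAV-hM3Dq-mCherry, in the arcuate nucleus of the hypothalamus, and 3 weeks were allowed to pass. The virus carries an excitatory DREADD, a receptor that answers to clozapine-N-oxide (CNO), behind the neuronal hSYN promoter and in a form that only Cre switches on, so the receptor is made in AgRP neurons of Agrp Cre/+ mice and control mice lack Cre. Food was removed 1 h before CNO was given at 1 mg/kg, and sperm was taken 4 h after CNO. The labels name samples and not animals, so p-values measure the spread between these samples. Activated replicates 1 to 4 held 14903635, 17489698, 14757501 and 9409491 reads, and control replicates 1 to 4 held 12421068, 23123740, 9297271 and 14348060. Reads annotated as miRNA made up 22.95% to 37.8% of them in activated samples and 17.8% to 47.1% in control samples. All levels are given as RPM, the reads of a miRNA per 1000000 reads of the file total, and are not corrected for ligation bias, and replicates are listed in the order 1 to 4.

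A miRNA is cut from a hairpin precursor, whose 5p or 3p arm is loaded into an Argonaute protein and guides it to messenger RNAs that pair with the seed, the bases near the 5' end of the miRNA. Sperm carries miRNAs made in the testis and takes up others from epididymal epithelium during maturation. In mice, miRNAs of stressed fathers' sperm have been injected into zygotes, where they lower maternal messenger RNAs and pass on an altered stress response.

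All 7 hairpins of the members were matched in RefSeq (GRCm38.p6), and 12 of their mature arms, all but mmu-miR-375-3p and mmu-miR-532-5p. The sequences shown let the members be set beside the relatives that share a seed, and the capitals mark the seed, bases 2 to 8. The miR-29 family shares a seed on the 3p arm, and a read that fits both mmu-mir-29b and mmu-mir-29c was not counted for either.
mmu-miR-29c-3p: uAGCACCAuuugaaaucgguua
mmu-miR-29a-3p: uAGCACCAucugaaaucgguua
mmu-miR-29b-3p: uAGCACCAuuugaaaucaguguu
The 5p arm of miR-32 has the seed of miR-25 and miR-92a, while its 3p arm has another.
mmu-miR-32-5p: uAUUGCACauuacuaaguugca
mmu-miR-25-3p: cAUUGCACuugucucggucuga
mmu-miR-92a-3p: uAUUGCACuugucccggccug
mmu-miR-32-3p: cAAUUUAGugugugugauauu
The seed of miR-204 is also that of miR-211, and the seed of miR-193a-3p that of miR-193b-3p.
mmu-miR-204-5p: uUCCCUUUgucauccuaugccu
mmu-miR-211-5p: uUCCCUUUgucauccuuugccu
mmu-miR-193a-3p: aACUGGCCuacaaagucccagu
mmu-miR-193b-3p: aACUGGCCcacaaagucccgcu
mmu-miR-193a-5p: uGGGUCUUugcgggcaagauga
Also shown are the 3p arm of miR-532, which is the arm named in the earlier stress work, and both arms of miR-698, the member with no read.
mmu-miR-532-3p: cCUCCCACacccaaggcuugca
mmu-miR-698-5p: uGUGGGUGggacagggauguu
mmu-miR-698-3p: cAUUCUCGuuuccuucccu
In sperm the 5p arm of mmu-mir-29c was most often read from a start 2 bases inside the RefSeq entry, and the 5p arm of mmu-mir-32 most often ended early. The RefSeq 5p arm of miR-29c stands first, then the sequence of each 5p arm with most reads.
mmu-miR-29c-5p: uGACCGAUuucuccugguguuc
29c 5p arm as read: aCCGAUUUcuccugguguucaga
32 5p arm as read: uAUUGCACauuacuaaguug

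The members lie on separate stretches of 5 chromosomes, given here in mm10 with GENCODE annotation. Mir29c lies on chromosome 1 from 195037547 to 195037634 on the plus strand, in an exon of the noncoding transcript A330023F24Rik and opposite an exon of Cd46, next to Mir29b-2. Mir375 is on the same chromosome from 74900658 to 74900721 on the minus strand and overlaps no other gene. Mir32, on chromosome 4 from 56895229 to 56895298 on the minus strand, lies in an intron of Tmem245, and Mir698, on the same chromosome from 124743781 to 124743889 on the plus strand, overlaps an exon of Inpp5b and, on the other strand, an intron of Gm12915, with Mir697 within 20 kb. Mir193a lies between genes on chromosome 11 from 79711969 to 79712034 on the plus strand, with Mir365-2 within 20 kb. Mir204 is in an intron of Trpm3 on chromosome 19 from 22750605 to 22750672 on the plus strand. Mir532 is on chromosome X from 7248402 to 7248497 on the minus strand, in an intron of Clcn5, with Mir500, Mir501, Mir362 and Mir188 within 20 kb on the same strand.

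The comparison asks whether sperm miRNAs that respond to paternal stress also differ after AgRP neurons are activated. None of the 5 members that could be tested was called. The largest difference was that of mmu-mir-204, lower in activated sperm at 0.435 of control, and the groups did not overlap only for mmu-mir-532, higher at 1.31 times control. In order of level the members ran from mmu-mir-375 through mmu-mir-532, mmu-mir-32, mmu-mir-204 and mmu-mir-29c to mmu-mir-193a and mmu-mir-698. The ranges of mmu-mir-32, mmu-mir-204 and mmu-mir-29c over the 8 samples overlapped each other, and those of mmu-mir-375 and mmu-mir-532 stood clear of every other member. In bulk RNA, fewer cells that carry a miRNA and less of it per cell cannot be told apart.

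**Figure D1:**
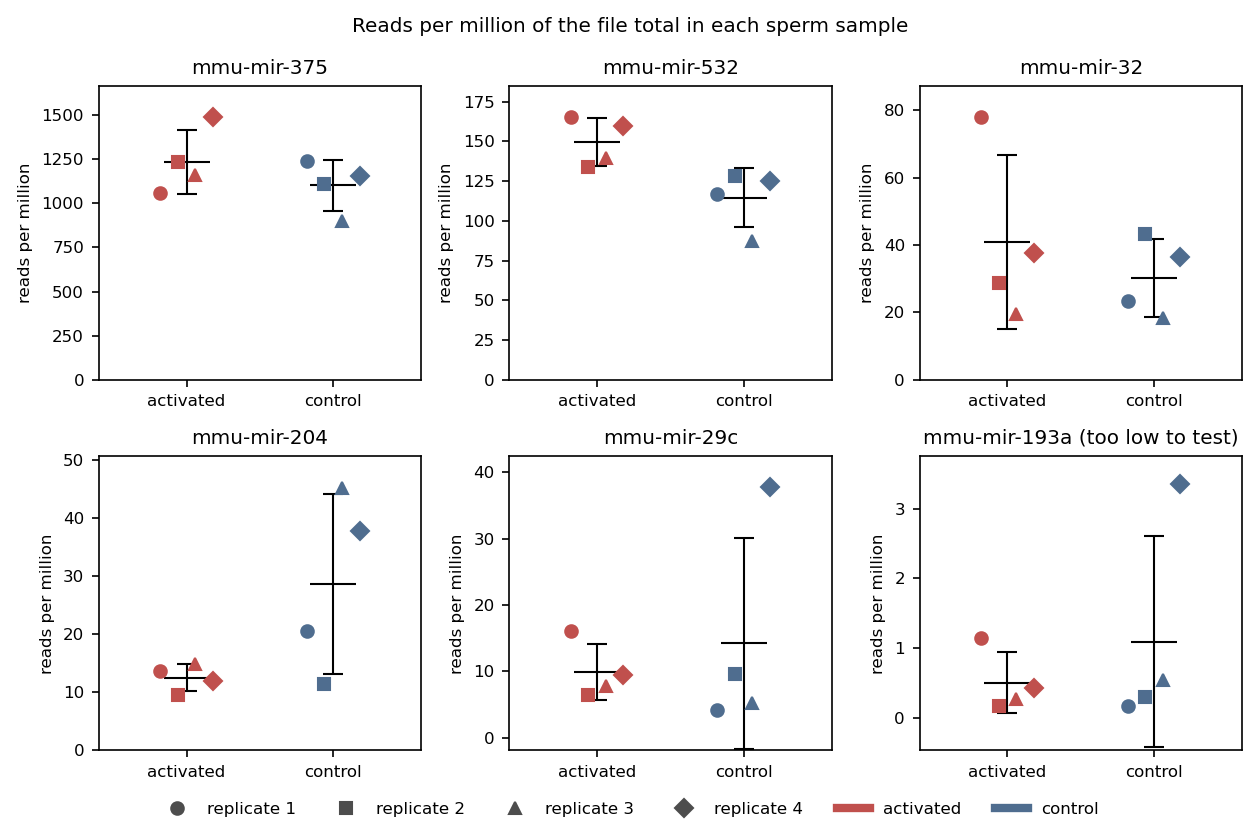
Level of 6 members in each sperm sample, in RPM, with activated samples in red and control samples in blue, a marker shape for each replicate number, and black lines for the mean and SD of 4 samples. Groups are apart only for mmu-mir-532, control replicate 4 stands at 37.8 RPM for mmu-mir-29c and 3.35 RPM for mmu-mir-193a, and mmu-mir-698 has no read and no panel.

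The member with most reads was mmu-mir-375, a miRNA best known from pancreatic islets and other endocrine cells, where it restrains insulin secretion. Activated samples held 1058, 1231, 1162 and 1485 RPM, and control samples 1242, 1111, 901 and 1153 RPM. The groups overlapped, with activated replicate 4 highest and control replicate 3 lowest. The mean was 1234 ± 182 RPM after activation against 1102 ± 144 RPM without it (SD, n = 4 each). EdgeR put the log2 fold change at 0.20 ± 0.23 (SE), with an adjusted p of 0.671. It ranked 42 among the 861 miRNA species by mean level.

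Of the members, mmu-mir-532 belongs to the X-linked cluster in Clcn5. Its level was 165, 134, 139.7 and 159 RPM in activated samples and 117, 128, 87.6 and 125 RPM in control samples. Every activated sample was above every control sample, though activated replicate 2 exceeded control replicate 2 by little. The means were 149.6 ± 14.98 and 115 ± 18.6 RPM (SD, n = 4 each), and a two-sided exact permutation test gave p = 0.0286, the smallest that 4 samples against 4 allow, and 0.780 after Benjamini-Hochberg adjustment over the 587 RNA species tested. It was 1 of the 5 members tested whose groups did not overlap, against 13 of all 587 RNA species (2.21%). In edgeR the log2 fold change was 0.41 (95% interval -0.08 to 0.89, adjusted p = 0.559). With miRNA reads in place of all reads as the denominator, the ratio was 1.21 and the groups overlapped (exact permutation test, p = 0.314).

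The separation lay on neither arm by itself. The 3p arm, the one raised in the earlier stress work, stood at 35.4, 39.1, 47.5 and 50.8 RPM in activated samples and 40.2, 32.7, 36.4 and 35.5 RPM in control samples, which overlap. The 5p arm, mmu-miR-532-5p, had 129.6, 95.1, 92.2 and 109 RPM in activated samples and 76.9, 95.8, 51.2 and 89.6 RPM in control samples, with control replicate 2 above 2 activated samples. Among 5 sequences of this miRNA that were tested singly, a 5p sequence of 22 nt was apart between groups, with 84.9, 62.8, 60.8 and 69.3 RPM against 49.6, 60.0, 32.5 and 59.8 RPM. The lowest activated value, in replicate 3, lay close to the highest control value. A 5p sequence of 21 nt was apart as well, at a lower level, with 6.91, 4.46, 4.13 and 7.12 RPM against 3.30, 3.89, 3.01 and 3.69 RPM.

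Although it shares the seed of the abundant miR-25 on its 5p arm, mmu-mir-32 was a low species, ranked 162 by mean level. It had 77.8, 28.6, 19.7 and 37.5 RPM in activated samples and 23.3, 43.3, 18.3 and 36.5 RPM in control samples. Activated replicate 1 was highest, and the rest of both groups overlapped. The means were 40.9 ± 25.7 and 30.3 ± 11.6 RPM (SD, n = 4 each). EdgeR put the log2 fold change at 0.36 ± 0.40 (SE), with an adjusted p of 0.671, and at -0.041 when activated replicate 1 was left out.

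Levels of many miRNA species, mmu-mir-32 and mmu-mir-29c among them, also differed along another split of the samples. The first principal component of all sequences, with 55.2% of the variance, placed activated replicates 1 and 4 and control replicates 2 and 4 on one side, where mitochondrial rRNA made up 0.123% to 0.182% of reads, and the other samples, at 1.09% to 1.89%, on the other. Each side holds 2 activated and 2 control samples. MiRNA as a class was higher on the side poor in mitochondrial rRNA, at 33.2% to 47.1% of reads against 17.8% to 28.9%. On that side mmu-mir-32 averaged 48.8 RPM and on the other 22.5 RPM, with no overlap, and within the sides activated sperm stood at 1.45 and 1.16 times control. The averages of mmu-mir-29c were 18.2 and 5.88 RPM, also with no overlap, and without control replicate 4 the first was 11.7 RPM. That is 2 of 5 members higher on that side without overlap, against 109 of 273 miRNA species (39.9%) and 118 of 587 RNA species (20.1%), and 0 of 273 miRNA species (0%) and 21 of 587 RNA species (3.58%) were lower there without overlap. With miRNA reads in place of all reads as the denominator both miRNAs overlapped between the sides, and the ratio of the sides went from 2.17 to 1.36 for mmu-mir-32 and from 3.10 to 1.75 for mmu-mir-29c. With that denominator mmu-mir-375 and mmu-mir-532 were lower on the side poor in mitochondrial rRNA, without overlap, at ratios of 0.656 and 0.752, where per file total they overlapped at 1.06 and 1.21. Of 273 miRNA species 20 (7.33%) were lower there without overlap by that denominator and 3 (1.1%) were higher. The ratio of mmu-mir-204 went from 0.830 to 0.425, with overlap by both denominators. Its direction per file total rested on single samples, at 1.25 without control replicate 3 and 0.548 without control replicate 4. The comparison of the sides was chosen after the data were seen, and what the split reflects was not tested.

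In vertebrate tissues mmu-mir-204 is known from retinal pigment epithelium and kidney and is made from an intron of Trpm3. Its levels were 13.6, 9.49, 14.9 and 12.0 RPM in activated samples and 20.5, 11.4, 45.2 and 37.8 RPM in control samples. Control replicates 3 and 4 were high, control replicate 1 was above every activated sample, and control replicate 2 was among the activated samples. Activated sperm averaged 12.5 ± 2.33 RPM and control sperm 28.7 ± 15.5 RPM (SD, n = 4 each). In edgeR this was -1.18 ± 0.45 (SE) on the log2 scale, with a 95% interval of -2.19 to -0.16 and an adjusted p of 0.554. Unadjusted, mmu-mir-204 had the p of rank 18 among 587 RNA species. The exact permutation test on RPM gave p = 0.114, or 0.780 after adjustment over all species, and DESeq2 with shrunken fold changes gave -0.58 with an adjusted p of 0.243. By means, activated sperm was lower on both sides of the first principal component, at 0.521 and 0.371 of control. The high control replicates 4 and 3 lie on different sides. On the side of control replicate 4, control replicate 2, at 11.4 RPM, was below both activated samples. Activated sperm was also lower in each fit that left out 1 sample, with log2 fold changes between -1.44 and -0.91. Each such fit kept control replicate 3, control replicate 4 or both.

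Known for restraining collagens and other matrix genes and abundant in many differentiated tissues, mmu-mir-29c was read at 16.0, 6.46, 7.79 and 9.46 RPM in activated samples. Control samples held 4.11, 9.64, 5.16 and 37.8 RPM. Control replicate 4 was far above the other 7 samples, and the other control samples reached 9.64 RPM at most. With all samples the means were 9.94 ± 4.25 and 14.2 ± 16.0 RPM (SD, n = 4 each), and edgeR put the log2 fold change at -0.62 ± 0.71 (SE), with an adjusted p of 0.676. Without control replicate 4 it was 0.61, where the median over all miRNA species was 0.33, and the ratio of means moved from 0.700 to 1.58. Sequences annotated with both mmu-mir-29b and mmu-mir-29c held a further 28 to 120 reads per sample, and counting them gave -0.40.

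Too few reads were found to test mmu-mir-193a. It had 17, 3, 4 and 4 reads in activated and 2, 7, 5 and 48 reads in control samples, 90 in all, and no sample reached 50. In RPM that is 0.172 to 1.14 in activated and 0.161 to 3.35 in control sperm, with control replicate 4 highest. A count of 0 was found for mmu-mir-698 in all 8 samples, which allows up to 3 reads per sample, 0.130 to 0.323 RPM depending on depth. Reads are amplified copies, so this limit covers counting error only, and a lower level of mmu-mir-698 was not detectable at this depth.

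**Figure D2:**
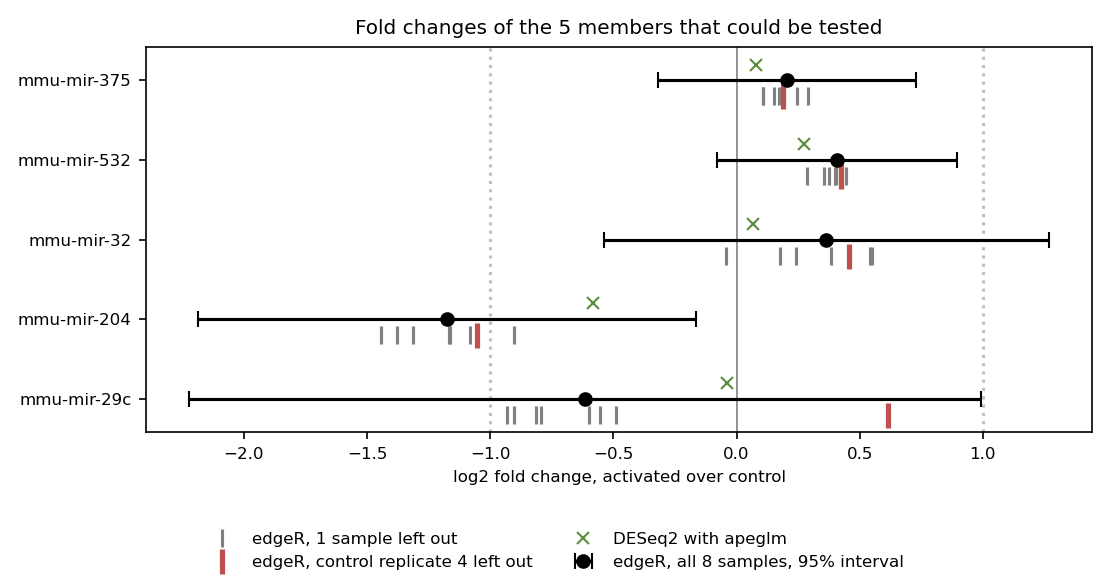
Log2 fold change of activated over control sperm for the 5 members tested, with edgeR's estimate and 95% interval in black, DESeq2's shrunken estimate as a green cross, and edgeR's estimates with 1 sample left out as bars below, that without control replicate 4 in red. Dotted lines mark the fold change minimum of 1, which only mmu-mir-204 passes at -1.18, and leaving out control replicate 4 takes mmu-mir-29c from -0.62 to 0.61.

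Counted together, edgeR called 0 of the 5 members, a call being an adjusted p under 0.05 with a log2 fold change beyond 1, against 0 of 587 RNA species (0%), and DESeq2 called 0, against 3 of 587 (0.511%). At an unadjusted p under 0.05 edgeR had 1 member, mmu-mir-204, and 48 of all RNA species, 10 higher and 38 lower. Of the members 3 were higher and 2 lower, with a median log2 fold change of 0.20. The same median was -0.07 over all 587 RNA species and 0.15 over the 273 miRNA species, of which 167 were higher. Fitting miRNA species alone moved the latter median to 0.0088, mmu-mir-375 to 0.029 and mmu-mir-532 to 0.25. No member was called in any of the 23 fits made.

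The members were next taken apart into single sequences. Of 12077 sequences tested 15 belonged to members, 6 to mmu-mir-375, 5 to mmu-mir-532, 3 to mmu-mir-32 and 1 to mmu-mir-204. EdgeR called 0 of the 15, against 52 of all sequences (0.431%), and DESeq2 called 0, against 240 (1.99%), while 1 of the 15 had an unadjusted edgeR p under 0.05, as had 7.22% of all sequences. That sequence was the full mmu-miR-204-5p, with 10.5, 7.20, 10.03 and 8.93 RPM in activated and 14.7, 8.17, 30.9 and 29.8 RPM in control samples. Control replicates 3 and 4 were again high and control replicate 2 was among the activated samples (edgeR, -1.25 ± 0.49 SE on the log2 scale, adjusted p = 0.631). Groups did not overlap for 2 of the 15, both of mmu-mir-532, against 481 of all sequences (3.98%). The sequence with most reads made up 93.5% of the reads of mmu-mir-375 and 73.3% of those of mmu-mir-204, but 31.9% of those of mmu-mir-29c, where no sequence was frequent enough to test.

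Arms were found from the place of each sequence in its hairpin, and mmu-mir-32 was the most evenly split member. It had 2237 reads on the 5p and 2051 on the 3p arm, so that the lesser arm took 47.8%. Of 146 hairpins tested for arm use, 1 had a higher share on its lesser arm, and the median was 1.56%. In mmu-mir-532 the lesser arm, 3p, took 29.2%, with 17 hairpins above it. By contrast 99.98% of the reads of mmu-mir-375 were of the 3p arm, mmu-miR-375-3p, and 97.2% of those of mmu-mir-204 of the 5p arm.

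None of the 4 members tested for arm use was called. For mmu-mir-32 the 5p share was 43.4%, 49.1%, 56.6% and 53.3% in activated and 55.7%, 59.6%, 55.3% and 54.1% in control samples. Activated replicates 1, 2 and 4 were below every control sample, and activated replicate 3 was within them. The means were 50.6% ± 5.65 and 56.2% ± 2.37 (SD, n = 4 each; exact permutation test, two-sided, p = 0.143, adjusted p = 1 over 146 hairpins). For mmu-mir-532 they were 70.9% ± 5.48 and 67.6% ± 7.11 (SD, n = 4 each; exact permutation test, p = 0.486). Of all 146 hairpins 0 passed an adjusted p of 0.05 in the exact permutation test (0%), with 3 at an unadjusted p under 0.05.

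Where reads began and ended was set against the reference entries for the arms matched. On the 5p arm of mmu-mir-32 98.9% of reads began at the RefSeq start, which keeps the seed, but 63.0% were 20 nt and 33.6% were 21 nt long, and 25 of 2237 reads were the full entry of 22 nt. On its 3p arm 78.3% of reads were the full entry. The 3p arm of mmu-mir-532 began at the RefSeq start in 99.2% of reads, but 30.9% were the full entry, and its sequence with most reads was 21 nt long, with 2750 reads against 1386 for the full entry of 22 nt. The main arm of mmu-mir-29c, 3p, began at the RefSeq start in 99.2% of reads, and 39.5% were the full entry. Its 5p arm began there in 19.9% of 272 reads, and 191 reads (70.2%) began 2 bases further in, which gives the shifted seed shown above. That seed belongs to 0 other mature entries in RefSeq. The shifted start made up 29 of 39, 37 of 40, 21 of 31 and 7 of 10 reads of the arm in activated samples and 4 of 7, 18 of 31, 0 of 10 and 75 of 104 in control samples.

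**Figure D3:**
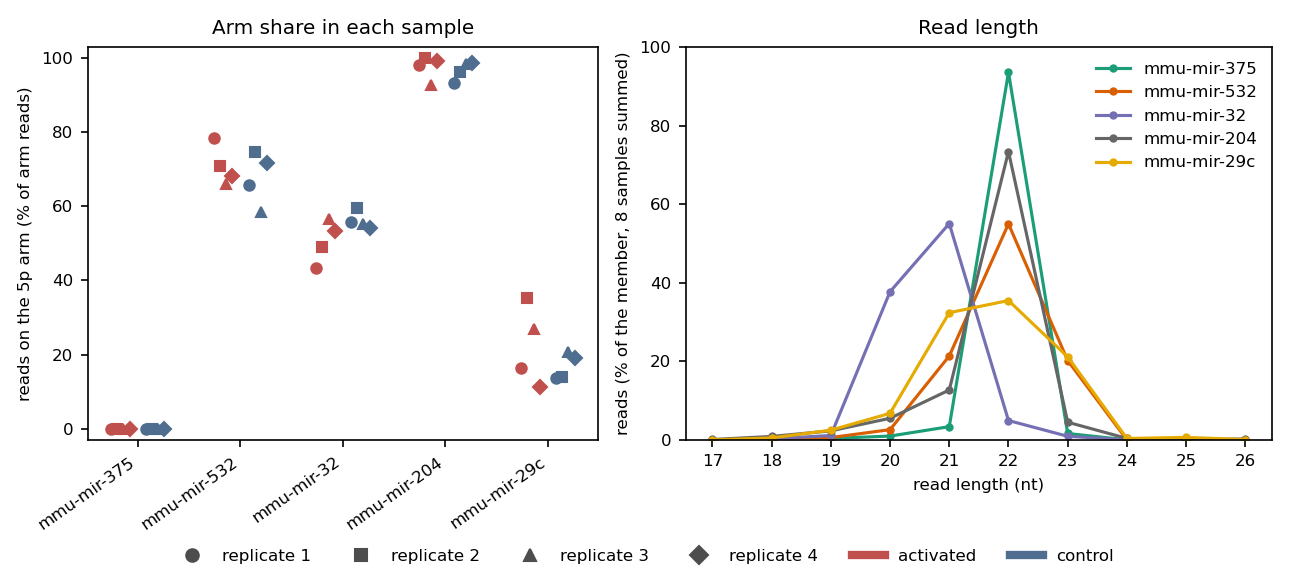
Left, share of the reads of each member that lie on the 5p arm, in percent of its arm reads, for each activated (red) and control (blue) sample. Right, share of the reads of each member at each length in nucleotides, over the 8 samples, where mmu-mir-32 peaks at 21 nt with 55.1% and mmu-mir-375 at 22 nt with 93.6%.

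Nor was a member called for read length. Mean read length was 20.7 ± 0.031 nt in activated and 20.6 ± 0.066 nt in control sperm for mmu-mir-32 (SD, n = 4 each; exact permutation test, two-sided, p = 0.257) and 21.7 ± 0.348 against 21.6 ± 0.153 nt for mmu-mir-29c (SD, n = 4 each; exact permutation test, p = 0.486). Adjusted over the 273 miRNA species, the p was 0.986 for each of the 5 members tested, and 0 species passed 0.05 in the exact permutation test (0%), with 6 at an unadjusted p under 0.05.

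MiRNAs can gain bases at the 3' end after cutting, and reads with such bases need not fit a genome site. Reads that hold a stretch of a member's hairpin followed by 1 to 4 bases that are not in it, and that fit no genome site, are called tailed here and were not counted for the members. The origin of the added bases was not tested. Pooled over the 8 samples, such reads amounted to 19.0% of templated plus tailed reads for mmu-mir-375 and 18.9% for mmu-mir-29c. For mmu-mir-532 they amounted to 16.6%, for mmu-mir-204 to 12.2% and for mmu-mir-32 to 3.60%. The median over 247 miRNA species was 10.7%. Averaged over samples, the share of mmu-mir-29c was 15.7% in activated and 24.6% in control sperm, and that of mmu-mir-375 19.5% and 18.4%. Tailed reads of mmu-mir-375 numbered 31589, of which 95.4% carry a piRNA label in the deposited tables and the rest no annotation. That label was on 90.5% of the tailed reads of mmu-mir-532, 84.9% for mmu-mir-204, 77.4% for mmu-mir-29c and 3.75% for mmu-mir-32. A single added T made up 63.2% of the tailed reads of mmu-mir-204 and 58.6% of those of mmu-mir-532, and a single added A 57.5% of those of mmu-mir-32.

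Tailed shares were apart between groups for 2 of the 5 members, in opposite directions, against 7 of 247 miRNA species (2.83%). Tailed reads of mmu-mir-29c numbered only 332 over the 8 samples, and control replicates 1 and 3 held 51 and 48 templated reads of it. In mmu-mir-29c the share was 15.8%, 16.9%, 15.4% and 14.4% in activated and 30.1%, 24.4%, 26.2% and 17.7% in control samples. Each activated sample was lower than each control sample, and control replicate 4, the sample with most reads of this miRNA, was nearest to the activated ones. In mmu-mir-375 the share was 19.3%, 19.2%, 20.7% and 18.9% against 18.8%, 18.8%, 18.3% and 17.6%, with activated replicate 4 above control replicate 1 by little. A two-sided exact permutation test gave p = 0.0286 for both and 0.814 after adjustment over the 247 species, of which 0 passed. This comparison was chosen after the data were seen.

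**Figure D4:**
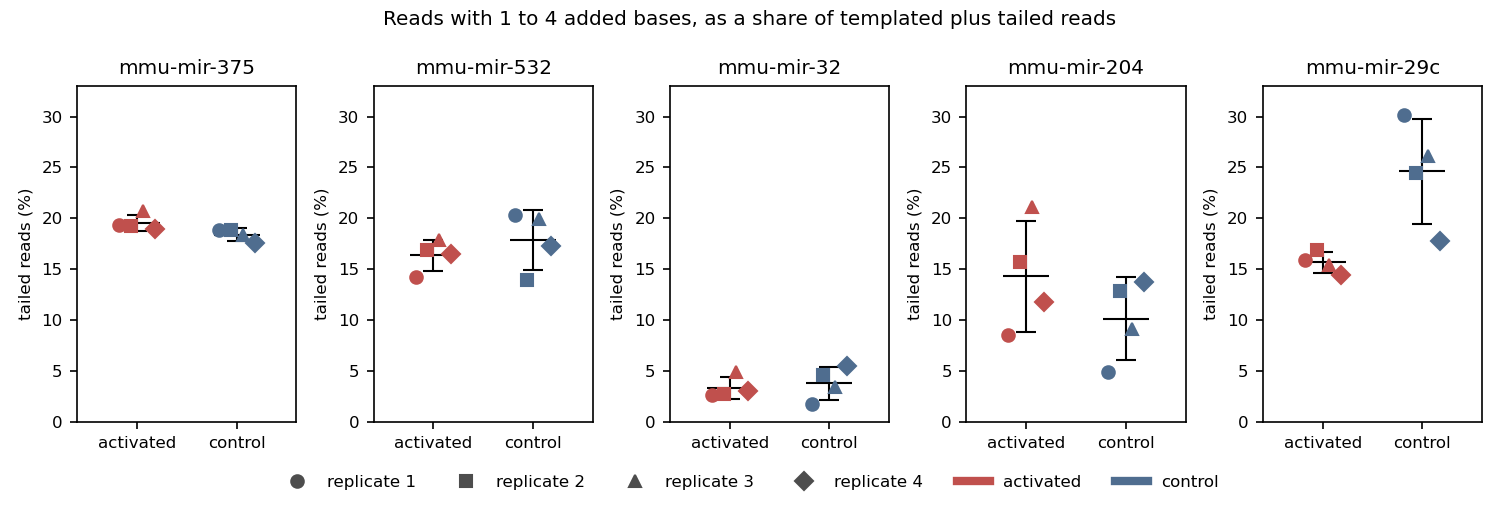
Reads with 1 to 4 added bases that fit no genome site, in percent of templated plus tailed reads of each of the 5 members tested, for activated (red) and control (blue) samples, with the mean and SD of 4 samples in black. Groups are apart for mmu-mir-29c, with 14.4% to 16.9% in activated samples against 17.7% to 30.1%, and for mmu-mir-375.

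None of the members' relatives in seed that could be tested was called. Of 9 such miRNAs on the list 6 could be tested, 2 were higher and 4 lower, the median log2 fold change was -0.13 and the lowest edgeR adjusted p was 0.653. Under library size alone, DESeq2, DESeq2's size factors or miRNA species alone 1 was higher and 5 were lower, and without control replicate 4 the median was 0.11, with 3 higher. In that last fit the median over all miRNA species was 0.33. Both edgeR and DESeq2 called 0 of the relatives tested, with 0 at an unadjusted edgeR p under 0.05. Relatives of mmu-mir-29c had 380.3 ± 85.0 against 443 ± 268 RPM for mmu-mir-29a and 73.9 ± 39.1 against 81.9 ± 66.7 RPM for mmu-mir-29b (SD, n = 4 each), and control replicate 4 was highest for both, at 830 and 180.3 RPM. Among relatives of mmu-mir-32, mmu-mir-25 had 4879 ± 1064 against 4040 ± 972 RPM, mmu-mir-92a 1862 ± 348 against 1957 ± 373 RPM and mmu-mir-92b 19.9 ± 2.71 against 20.97 ± 4.18 RPM (SD, n = 4 each). The relative of mmu-mir-193a, mmu-mir-193b, was frequent enough to test, with 20.5 ± 2.39 against 26.8 ± 9.03 RPM (SD, n = 4 each). In the relative of mmu-mir-204, mmu-mir-211, and in mmu-mir-363 the counts were under the minimum, and mmu-mir-367 had no read. By the seeds of the 12 arms matched, RefSeq holds 3 further hairpins that were not on the list, mmu-mir-7670 with 1 read over the 8 samples, mmu-mir-7078 with 2 and mmu-mir-7684 with 0.

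Cluster neighbours gave no call in edgeR or DESeq2 for the 5 of 7 on the list that could be tested, 3 higher and 2 lower in edgeR, with a median of 0.11 and 0 at an unadjusted edgeR p under 0.05. In the fit of miRNA species alone 2 were higher and 3 lower, with a median of -0.039. The same numbers held without control replicate 3, with a median of -0.011. Without control replicate 4 all 5 were higher, with a median of 0.40. In that fit 214 of all 263 miRNA species were higher, with a median of 0.33. In the Clcn5 cluster of mmu-mir-532 the levels were 157 ± 38.7 against 135 ± 53.4 RPM for mmu-mir-362, 24.2 ± 5.07 against 19.1 ± 6.32 RPM for mmu-mir-500 and 106 ± 22.2 against 102 ± 17.2 RPM for mmu-mir-501 (SD, n = 4 each). The groups overlapped for each of these 3, unlike for mmu-mir-532. The neighbour of mmu-mir-193a, mmu-mir-365, had 41.9 ± 6.49 against 59.2 ± 34.8 RPM (SD, n = 4 each), with 110.3 RPM in control replicate 4. Counts of mmu-mir-188 were under the minimum, and mmu-mir-660, which was on the list but not among the hairpins found within 20 kb, had no read. The neighbour of mmu-mir-698, mmu-mir-697, was not on the list and had no read either.

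By profile over the 8 samples, the miRNA species most like mmu-mir-29c was mmu-let-7f, with a Pearson correlation of log2(RPM + 1) of 0.985. For mmu-mir-375 it was mmu-mir-470 (0.979), and for mmu-mir-204 mmu-mir-193b (0.897). Sequences shared by members of the miR-466 family were most like mmu-mir-32 (0.989) and mmu-mir-532 (0.979). Each is the highest of at least 271 correlations over the same 8 samples and is a description with no test.

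Marker miRNAs of other cells were set beside the members, since sperm preparations can hold somatic cells. The muscle and vessel list (5 miRNAs, all with reads, most abundant mmu-mir-143) summed to 524, 258, 180.2 and 374 RPM in activated samples and 255, 445, 307 and 36472 RPM in control samples. The epithelium list (7 miRNAs, all with reads, most abundant mmu-mir-200c) summed to 3476, 1166, 1085 and 1196 RPM in activated and 1364, 1825, 2733 and 19420 RPM in control samples. Control replicate 4 was thus highest in both lists, as it was for mmu-mir-29c and mmu-mir-193a. The part of other cells in those values was not tested. Control replicates 3 and 4, in which mmu-mir-204 was high, were the highest control samples of the epithelium list. Activated replicate 1, at 3476 RPM, was above control replicate 3 in that list, and held 13.6 RPM of mmu-mir-204. Control replicates 3 and 4 were also the highest samples of the erythroid list (4 miRNAs, all with reads, most abundant mmu-mir-451a). That list summed to 298, 83.5, 113 and 84.1 RPM in activated and 235, 532, 976 and 659 RPM in control samples, and its part in the value of mmu-mir-204 was not tested. The difference of mmu-mir-204 was in the same direction without control replicate 3, at a log2 fold change of -0.91, and without control replicate 4, at -1.05. Each of these fits keeps the other high control sample, so neither shows the direction without both.

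**Figure D5:**
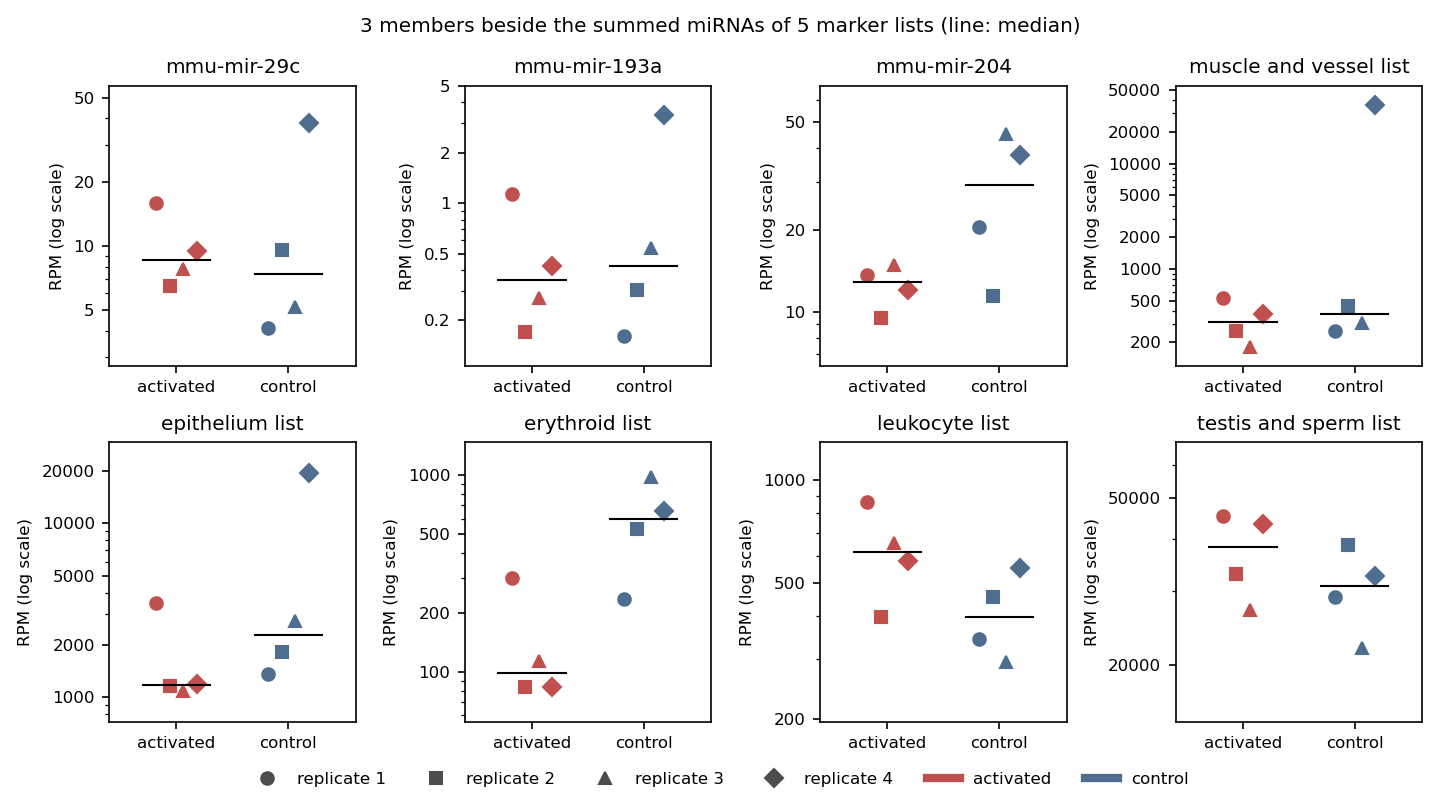
Level of 3 members and summed level of 5 lists of marker miRNAs in each sample, in RPM on log axes, with activated samples in red, control samples in blue, a marker shape for each replicate number and a line at the median of 4 samples. Control replicate 4 is highest in the panels of mmu-mir-29c, mmu-mir-193a, the muscle and vessel list (36472 RPM) and the epithelium list (19420 RPM), and control replicate 3 in those of mmu-mir-204 and the erythroid list.

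The leukocyte list (4 miRNAs, all with reads, most abundant mmu-mir-142a) summed to 862, 398, 655 and 581 RPM in activated and 343, 454, 295 and 553 RPM in control samples. The testis and sperm list (15 miRNAs, all with reads, most abundant mmu-mir-34b) summed to 45344, 32864, 26963 and 43402 RPM in activated and 28990, 38620, 21874 and 32533 RPM in control samples, above every other list in each sample except that of muscle and vessel in control replicate 4. Tested species were lower in activated sperm in 7 of 7 for epithelium (median log2 fold change -2.16), 3 of 3 for erythroid (-1.95) and 3 of 3 for muscle and vessel (-4.70), and higher in 3 of 3 for leukocyte (0.53) and 15 of 15 for testis and sperm (0.26), against a median of 0.15 over miRNA species. EdgeR called 0 of these, with 4 epithelium, 2 erythroid and 2 muscle and vessel species lower at an unadjusted p under 0.05, and DESeq2 called 2, both erythroid and lower. In the fit of miRNA species alone 4 of 15 testis and sperm species and 1 of 3 leukocyte species were lower, as was 1 leukocyte species among genome-matched sequences or with the replicate block and 1 testis and sperm species without control replicate 3. Without control replicate 4 the median over all miRNA species was 0.33. The medians in that fit were -0.17 for epithelium, with 6 of 7 lower, and 0.039 for muscle and vessel, with 1 of 3 lower. The medians of these lists were -0.052 and -0.035 with DESeq2's shrunken fold changes and -1.01 and -0.99 with the replicate block, and that of the erythroid list was -1.65 and -2.12.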

How the data were processed

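The authors made libraries from 100 ng of sperm RNA, sequenced 50 bp single reads, trimmed them, kept 15 to 45 nt with duplicates left in, and matched them with 0 mismatches to mm10, miRBase 21 and other databases with SPORTS1.1. The deposited tables give, per sample, counts, the raw reads of each sequence with its annotation, and estimated counts, in which a read is divided among the RNAs it fits. The first were used for all results, and the second only to check the totals. Sequences without annotation (9.53% to 23.7% of reads) stayed in the totals, as the rule for RPM asks, and were not tested as species.

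Rows were summed by annotated RNA. EdgeR 4.0.16 (TMM, quasi-likelihood test) in R 4.3.3 was run on species and on sequences that reached 50 counts in 4 or more samples. Calls needed a log2 fold change beyond 1 and p under 0.05 after Benjamini-Hochberg adjustment. The same was done with DESeq2 1.42.0 and apeglm 1.24.0. Two-sided exact permutation tests over 70 assignments of 4 samples against 4 were run for every species on RPM, arm share, read length and tailed share (a stretch of at least 18 bases of the hairpin, then 1 to 4 added), with Python 3.11.15, numpy 2.4.6 and pandas 2.3.3. Figures were drawn with matplotlib 3.10.9. Both kinds of test were tested on simulated data. Arms were set by the midpoint of the RefSeq hairpin, which gave the named arm for 1324 of 1324 mature entries.

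Named items are all 7 members, for each tested one its sequence with most reads and most similar miRNA, and lists of seed relatives, neighbours and cell markers. Members and lists were chosen with earlier results of these data known, and the levels of single arms, the ranks of lesser arms, the start sites, the tailed shares and the levels between and within the sides of the first principal component after the data were seen. Alternatives were other tools, scalings, count minimums, sequences, denominators, covariates, a replicate block and leaving out each sample.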

Additional observations from a re-analysis of the deposited data

Results flagged for a closer look

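In 2 of the 12 sets of 4 samples examined (6 members with reads in 2 groups) a sample stood far from the other 3, by a criterion that flags about 1 in 20 sets by chance. Both were control replicate 4. For mmu-mir-29c it held 37.8 RPM, with 9.64 RPM in the nearest control sample. For mmu-mir-193a it held 3.35 RPM, with 0.538 RPM in the nearest, and these rest on 48 and 5 reads. In the same sample the muscle and vessel list summed to 36472 RPM and the epithelium list to 19420 RPM, and their part in the values of both members was not tested.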

How the results depend on the processing

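No member was called under any alternative. The direction of mmu-mir-204, mmu-mir-375 and mmu-mir-532 was the same in all 22 alternative fits, with log2 fold changes of -1.44 to -0.58, 0.03 to 0.29 and 0.25 to 0.45. No fit left out both control replicates 3 and 4, in which mmu-mir-204 was high. The direction of mmu-mir-32 reversed without activated replicate 1 (-0.041, ratio of RPM 0.943). That of mmu-mir-29c reversed without control replicate 4 (0.61, ratio of RPM 1.58) and with replicate number as a block (0.051). Leaving out 1 sample gave mmu-mir-29c between -0.93 and 0.61 (ratio 0.557 to 1.58) and mmu-mir-32 between -0.041 and 0.55 (ratio 0.943 to 1.58). On the side of the first principal component rich in mitochondrial rRNA the ratio of mmu-mir-29c was 1.54, and on the other 0.537. The unadjusted exact permutation p of mmu-mir-532 went from 0.0286 to 0.0571 when any of activated replicates 1 and 4 and control replicates 1 and 3 was left out. It stayed at 0.0286 when any of activated replicates 2 and 3 and control replicates 2 and 4 was left out. In all these fits 1 group has 3 samples and the groups still do not overlap. The unadjusted exact permutation p of mmu-mir-204 went from 0.114 to 0.0286 without control replicate 2. That was the only control sample within the activated range, so the groups no longer overlap without it. This p is the smallest that 4 samples against 3 allow.

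Counts of RNA species called were 0 in edgeR under 19 alternatives and 3 with DESeq2, all lower. Sequences called, 52 with edgeR, numbered 240 with DESeq2, 27 with library size only, 256 with a minimum of 10 counts, 137 with the side of the first principal component as covariate, and 0 among genome-matched sequences only. Leaving out 1 sample gave 0 to 54, and 0 for 6 of the 8 samples. The replicate block gave 0 sequences and 0 RNA species. Samples of the same number did not deviate together in every pair (correlations -0.51, 0.04, 0.53 and -0.11). The labels do not say whether the numbers pair samples, and these correlations cannot decide it, as each rests on a single pair. Except as shown by the fewer samples or sequences fitted, the cause of the changes in the counts called was not tested. Counts of hairpins and miRNAs called by arm share and read length were 0 with 18 to 25 nt only, as with all lengths. Counting tailed reads with the members, and annotated reads as library size, were chosen after the data were seen, as were the levels between and within the sides and, for the sides, miRNA reads as the denominator and leaving out each sample. At the depth reached mmu-mir-193a and mmu-mir-698 could not be tested.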
